A study of Homo sapiens with 8 samples.

Results

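The genes described here encode histone modifiers and chromatin remodelers, chosen by symbol from the protein-coding genes of GENCODE release 44. Symbols that start with KMT, SETD, KDM, HDAC, SMARC or ARID were taken, together with EZH1, EZH2 and every CHD or BRD symbol followed by a number. KMT2A was left out. This gave 90 genes of 20046, of which 7 were KMT, 11 SETD, 2 EZH, 20 KDM, 11 HDAC, 13 SMARC, 10 ARID, 9 CHD and 7 BRD genes. Binding of IGF2BP1 to their RNA was measured by eCLIP in H1299, a human non-small cell lung carcinoma line whose genotype is labelled WT. In eCLIP, RNA crosslinked to an immunoprecipitated protein is sequenced and set against a size-matched input library made without the antibody.

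Cells received 1.5 µM AVJ16, a small molecule that binds IGF2BP1, or 0.01% DMSO for 24 h, and were then crosslinked with UV light of 254 nm at 400 mJ/cm2. Each treatment had 2 immunoprecipitated and 2 input libraries, 8 in all, with 2 plates of cells per condition from 1 thaw of the line. The deposited peaks are 1 list per treatment in which both replicates are already combined, so no value below has an error between replicates and no test of a difference was possible. A listed peak has a log2 fold enrichment over input of at least 3, and the paper also set a p-value limit for its peaks. A site that misses either threshold in 1 treatment is missing from that list, whatever its level. RNA levels are not in the lists, so that a gene without a peak may be unbound or its RNA scarce, and these cannot be told apart. For the same reason the identity of the cells could not be checked against marker genes.

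IGF2BP1 is an RNA-binding protein of the IMP family that is high in embryos and in many tumours, and low in most adult tissues. It binds mRNAs largely in their 3’UTR and is known to stabilise many of them and to affect their translation and localisation. The proteins encoded by the chosen genes, bound or not, mostly act on chromatin, in distinct ways. KMT, SETD and EZH proteins carry the SET domain of lysine methyltransferases, KDM proteins remove methyl groups and HDAC proteins remove acetyl groups from lysines. Most SMARC and CHD proteins form or power complexes that move nucleosomes, ARID proteins bind DNA and some of them are subunits of such complexes, and BRD proteins recognise acetylated lysines.

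Of the 90 genes, 34 (37.8%, 95% Wilson interval 28.5 to 48.1%) carried at least 1 peak in the DMSO list, where 25.8% of all protein-coding genes did. In the AVJ16 list the number was again 34, against 23.2% of all protein-coding genes. In both lists 30 genes were bound, while 20.4% of all protein-coding genes were. HDAC1, KDM1A, KDM5A and SETD5 were listed only with DMSO, and KMT2D, SETD2, CHD8 and BRD1 only with AVJ16. Over all protein-coding genes, 1083 were listed only with DMSO and 565 only with AVJ16. Of the genes bound with DMSO, 88.2% of the chromatin genes and 79.1% of all protein-coding genes were bound in both lists. No peak was listed in 52 chromatin genes (57.8%), against 71.4% of all. Intervals given here cover counting error only.

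The chromatin genes are long, and length moved with the share bound. Their median coding sequence (CDS) was 3238.5 nt and their median 3’UTR 1540.5 nt, against 1269 nt and 1021 nt over all protein-coding genes. For a CDS and 3’UTR of 2000 to 4000 nt together, 5 of 19 chromatin genes were bound with DMSO (26.3%), and 26.2% of all genes of that length. For 4000 to 6000 nt, 10 of 30 were bound (33.3%), against 38.1% of all. For 6000 nt or more, 19 of 35 were bound (54.3%, interval 38.2 to 69.5%), against 45.1% of all. None of the 6 chromatin genes shorter than 2000 nt was bound, where the Wilson interval reaches 39.0%. With DMSO the interval for the chromatin genes thus included the share for all genes in each of the 4 length classes. With AVJ16 it did so in all but the longest, where 20 of 35 were bound (57.1%, interval 40.9 to 72.02%) against 40.7% of all. Whether the higher share over all 90 genes holds beyond length was not tested.

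The share bound differed between families, with wide intervals. With DMSO it was 6 of 10 ARID, 10 of 20 KDM, 3 of 7 BRD, 4 of 11 SETD, 3 of 9 CHD, 4 of 13 SMARC, 2 of 7 KMT and 2 of 11 HDAC genes. With AVJ16 it was 6 ARID, 8 KDM, 4 BRD, 4 SETD, 4 CHD, 4 SMARC, 3 KMT and 1 HDAC gene. EZH1 and EZH2, the alternative catalytic subunits of Polycomb repressive complex 2, had no peak in either list.

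The chromatin genes held 198 of 22311 DMSO peaks and 173 of 22123 AVJ16 peaks. The peaks covered 15127 nt with DMSO (median log2 fold enrichment 3.49, interval 3.41 to 3.58) and 12725 nt with AVJ16 (median 3.501, interval 3.42 to 3.58). The ratio of covered lengths, AVJ16 over DMSO, was 0.841, and 0.907 over all protein-coding genes. Over all protein-coding genes the medians were 3.63 and 3.61. Peaks often adjoin, and in the chromatin genes those of both lists that touch or overlap form 184 sites. Of these sites, 72 (39.1%, interval 32.4 to 46.3%) were present in both lists, 65 (35.3%, interval 28.8 to 42.5%) with DMSO only and 47 (25.5%, interval 19.8 to 32.3%) with AVJ16 only. Over the whole lists the shares were 43.5%, 30.8% and 25.7% of 21385 sites, each within the interval of the chromatin genes. Since the same stretch may be divided into more peaks in one list than in the other, the length under peaks is given beside the number of peaks.

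**Figure D1:**
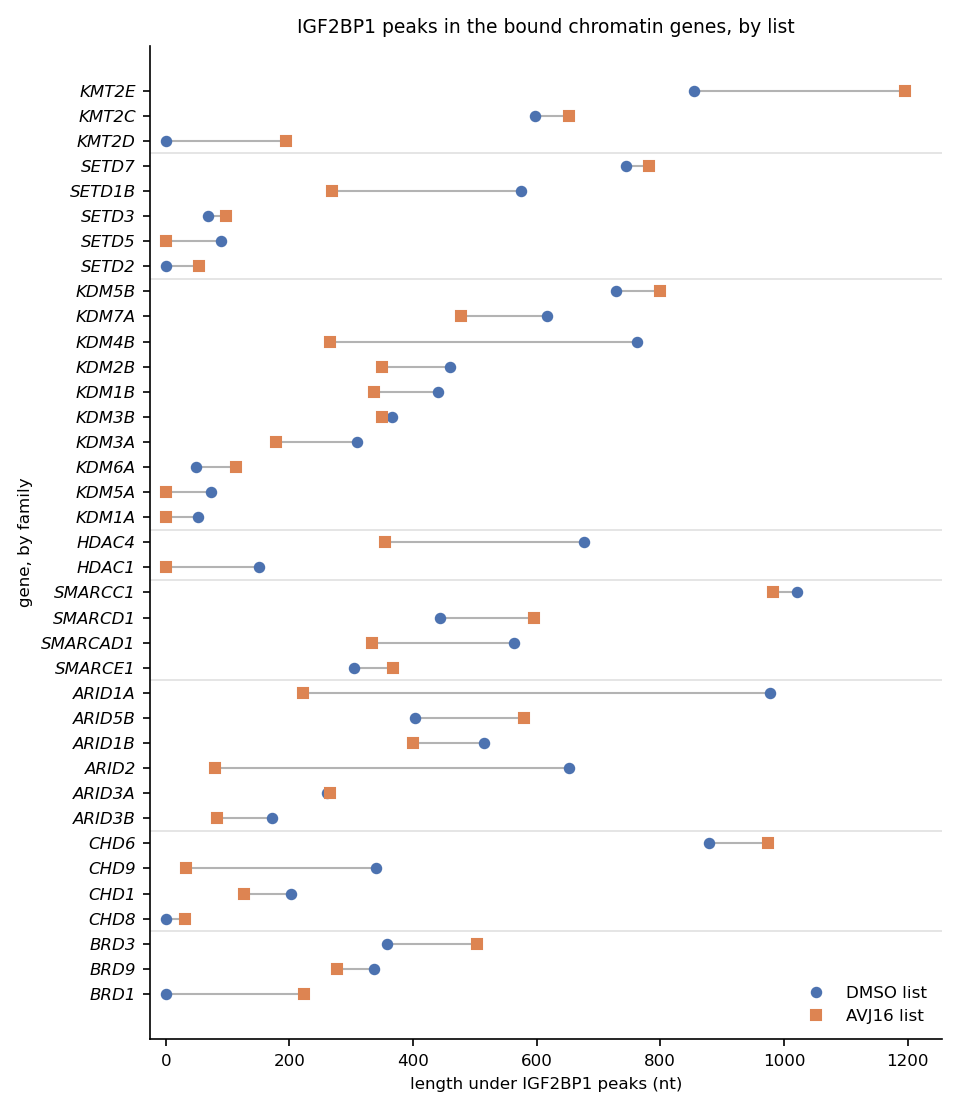
Length of RNA under IGF2BP1 peaks (x axis, nt) in 37 of the 38 chromatin genes bound in either list, grouped by family in the order KMT, SETD, KDM, HDAC, SMARC, ARID, CHD and BRD. Circles are the DMSO list and squares the AVJ16 list, each 1 value with no replicate error, and grey lines join both values of a gene. KMT2E had the longest stretch with AVJ16 (1196 nt) and SMARCC1 with DMSO (1021 nt), while ARID1A went from 977 to 222 nt.

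The RNA under the most enriched CDS or 3’UTR peak of each bound family other than BRD is shown because these peaks carry the highest values described below. Each sequence is the 30 nt around the centre of the peak, 5′ to 3′ on the strand of the gene, read from the hg38 reference. Capitals mark CAUA, CAUC or CAUU, the tetramers known for IMP proteins, and GGAC, a core of the m6A consensus, and matches may overlap.
KMT2C, DMSO list, CDS, chr7:152181240-152181269, minus strand: gaggCAUUcugaucCAUAugcuCAUCcucc
SETD7, AVJ16 list, 3’UTR, chr4:139506529-139506558, minus strand: auguauugggaagcuacagGGACuacguaa
KDM5B, DMSO list, 3’UTR, chr1:202728576-202728605, minus strand: uuguuuacucuguuaccaCAUUggggaaau
HDAC4, DMSO list, 3’UTR, chr2:239052642-239052671, minus strand: uuacccacaacuccacagucucuguguaaa
SMARCC1, DMSO list, 3’UTR, chr3:47586680-47586709, minus strand: aaugcaagguGGACAUCuuuuggauaucuu
ARID1A, DMSO list, 3’UTR, chr1:26781380-26781409, plus strand: ugucucacauggaaacagaaaacgcugggu
CHD6, AVJ16 list, 3’UTR, chr20:41403124-41403153, minus strand: uaauuuaucagaagguccaaaagucugaca

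These windows are not alike in the letters searched. The KMT2C window holds 3 CAUA, CAUC or CAUU matches, the SMARCC1 window holds GGAC run together with CAUC, and those of HDAC4, ARID1A and CHD6 hold neither. Over all 129 DMSO peaks in 3’UTRs of chromatin genes, 49 windows (38.0%, interval 30.1 to 46.6%) held CAUA, CAUC or CAUU. The share was 36.5% over 16653 DMSO peaks in 3’UTRs of all protein-coding genes, and 26.0% over 2553 windows without peaks in the 3’UTRs of the bound chromatin genes. With AVJ16, 32 of 117 windows (27.4%, interval 20.1 to 36.1%) held one, against 35.3% over all. GGAC was in 9 of the 129 DMSO windows (6.98%, interval 3.71 to 12.7%) and 12 of the 117 AVJ16 windows (10.3%, interval 5.96 to 17.1%). It was in 6.46% and 6.84% of the windows over all protein-coding genes and in 6.50% of the windows without peaks. The RNA strand alone was searched. A match is a description of the letters and does not mark a binding site.

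The 3’UTR held 129 DMSO peaks (65.2%, interval 58.3 to 71.4%) and 117 AVJ16 peaks (67.6%, interval 60.3 to 74.2%) of the chromatin genes. Over all protein-coding genes the shares were 75.9% and 76.3%. The CDS held 49 DMSO peaks (24.7%, interval 19.3 to 31.2%) and 43 AVJ16 peaks (24.9%, interval 19.0 to 31.8%), against 17.6% and 20.6% over all genes. Of these CDS peaks, 34 and 37 also overlap a 3’UTR of another transcript. With the 3’UTR ranked first, its share in the chromatin genes was 82.3% and 89.0%. No such share over all genes is given here. Distal introns held 17 (8.59%, interval 5.43 to 13.3%) and 8 (4.62%, interval 2.36 to 8.86%), against 5.15% and 1.93%. Of the 17, KDM4B held 9 and HDAC4 5, and of the 8, the BRD genes held 5. Proximal introns, within 500 nt of an exon, held 1 (0.505%) and 5 (2.89%), against 0.730% and 0.497%. On the canonical transcript, 3’UTR peaks lay a median of 819 nt past the first base of the stop codon with DMSO and 998 nt with AVJ16, against 948 and 960 nt over all genes. Families differed in region. All 44 DMSO and 37 AVJ16 peaks of the SMARC genes were in 3’UTRs, while all 18 and 24 peaks of the KMT genes were in the CDS. The KMT call rests on counting a peak as CDS where any transcript codes there, since 17 and 23 of these peaks also overlap a 3’UTR of another transcript.

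**Figure D2:**
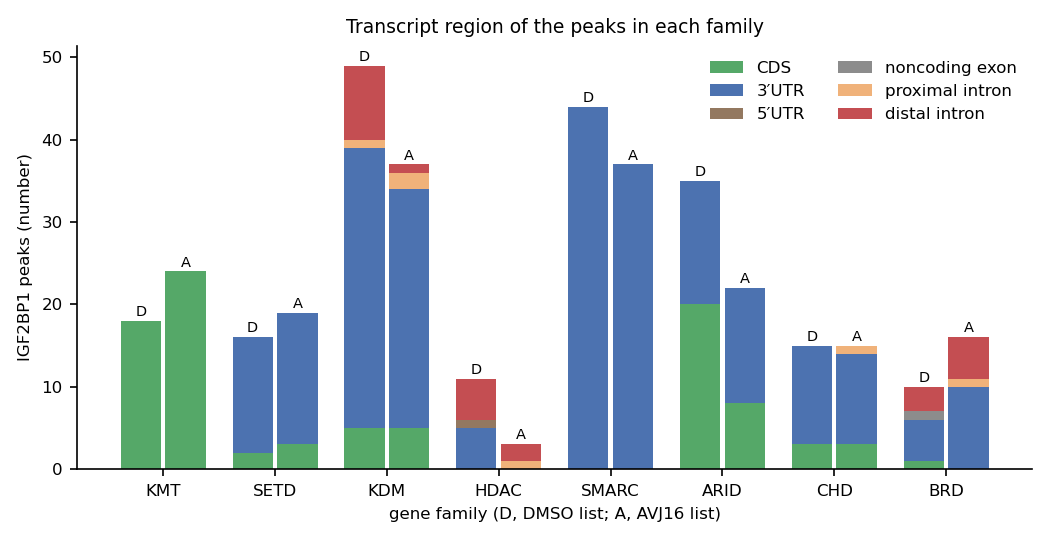
Number of IGF2BP1 peaks (y axis) in each family (x axis), split by transcript region, for the DMSO list (D) and the AVJ16 list (A). A peak in the CDS of 1 transcript and the 3’UTR of another counts as CDS. KMT bars are CDS only (18 and 24 peaks, of which 17 and 23 also overlap a 3’UTR) and SMARC bars 3’UTR only (44 and 37 peaks), whereas the distal intron part of KDM went from 9 to 1 peak.

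Among the lysine methyltransferase genes, KMT2E and KMT2C carried most peaks. KMT2E, also known as MLL5, is a SET-domain protein that reads methylated histone H3 and lacks clear methyltransferase activity. It had 9 DMSO peaks over 854 nt and 12 AVJ16 peaks over 1196 nt, all in its CDS, 15.3% and 21.5% of which lay under peaks. The median over 12 chromatin genes with covered CDS was 2.56% with DMSO. A stretch of 756 nt, from -1343 to -588 nt relative to the first base of the stop codon, held 6 peaks in each list, with best log2 fold enrichments of 4.04 and 4.14. All 8 shared peaks of KMT2E differed by less than 0.5, the limit used for a change.

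KMT2C methylates histone H3 at enhancers. It had 9 and 10 peaks, of which 5 in each list lay in 1 stretch of 378 nt of exon 36. The most enriched DMSO peak there, at a log2 fold enrichment of 4.31, had an AVJ16 partner at 3.73, a difference of -0.57. KMT2D, the close relative of KMT2C, had no DMSO peak but 2 AVJ16 peaks in exon 40, at 3.06 and 4.19. No KMT peak had its centre past the canonical stop codon. In KMT2C, 8 of 9 and 9 of 10 peaks also overlapped a 3’UTR of another transcript, as did every peak of KMT2E and KMT2D.

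SETD7, which places a methyl group on histone H3 and on other proteins such as p53, had 7 DMSO peaks and 10 AVJ16 peaks, all in a 3’UTR of 5628 nt. Most of them, 5 and 7, lay between 4462 and 5305 nt past the start of the stop codon. Neighbouring peaks there differed in opposite directions. The one at 5121 nt was at 4.26 with DMSO and 5.74 with AVJ16, a difference of 1.48, and this peak was the most enriched of the chromatin genes in the AVJ16 list. Another, at 4856 nt, was at 4.75 and 3.92, a difference of -0.83.

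SETD1B is a catalytic subunit of COMPASS, a complex that methylates histone H3 at promoters. It had 7 DMSO peaks over 574 nt and 5 AVJ16 peaks over 268 nt. Its best values were 4.34 and 4.61, and 1 of 5 shared peaks was higher with AVJ16, by 0.75. SETD3, which is best known as an actin histidine methyltransferase, had 1 and 3 peaks. SETD5 had 1 CDS peak at 3.31 with DMSO alone, and SETD2, which trimethylates histone H3 in gene bodies, 1 CDS peak at 3.12 with AVJ16 alone. Both of these peaks also overlap a 3’UTR of another transcript.

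The lysine demethylases gave the most bound genes of any family. KDM5B, which removes methyl groups placed by the KMT2 and SETD1 enzymes, had 9 peaks in each list, over 728 and 799 nt within the first 1595 nt of its 3’UTR. A DMSO peak at 5.92, the highest value of the chromatin genes, overlapped an AVJ16 peak at 4.08. This difference of -1.83 was the largest decrease among their shared peaks. Of its 9 shared peaks, 4 were lower and 1 was higher by more than 0.5. Among the lower ones, 2 overlapped the same AVJ16 peak at 3.48. The best values of the site that holds these 2 were 4.69 and 4.38, a difference of -0.31. The site of the largest decrease was present in both lists, 325 to 472 nt past the stop codon.

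KDM7A, a demethylase with a PHD finger, had 8 and 7 peaks spread over a 3’UTR of 6351 nt. Its most enriched peak was at 4.65 with DMSO and 5.01 with AVJ16. At that peak the AVJ16 window of 30 nt held 2 GGAC matches. KDM2B, which recruits a variant Polycomb complex to CpG islands, had 4 and 5 peaks. Its shared peak 280 nt past the stop codon was at 3.14 and 4.64, a difference of 1.50, the largest increase among the chromatin genes.
KDM2B, AVJ16 list, 3’UTR, chr12:121430038-121430067, minus strand: GGACCAUUucuaaggcggccuuuacaagaa
KDM7A, AVJ16 list, 3’UTR, chr7:140090046-140090075, minus strand: cguacugcugcuguuGGACaacaGGACugg

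KDM3A and KDM3B both act on histone H3 lysine 9. KDM3A had 4 and 3 peaks, all in 1 site of 310 nt, and they covered 51.7% of its 3’UTR of 600 nt with DMSO and 29.7% with AVJ16. Both of its shared peaks beyond 0.5 were higher with AVJ16 (by 0.52 and 0.69), while the best peak was at 4.24 and 4.11. KDM3B had 4 peaks in each list, around its stop codon except for 1 DMSO peak, with best values of 4.09 and 3.63. KDM1B, a flavin-dependent demethylase, had 5 and 4 3’UTR peaks, with best values of 4.81 and 4.23 at different sites. The DMSO peak at 4.81 had no partner, and the best AVJ16 value at its site was 3.62. The AVJ16 peak at 4.23 overlapped a DMSO peak at 3.78. KDM1A, a relative of KDM1B, had 2 CDS peaks at 3.36 and 3.09 with DMSO only, and both also overlap a 3’UTR of another transcript. KDM6A had 1 peak in each list, at 3.37 and 3.79, and KDM5A had 1 peak, at 3.61 with DMSO only.

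KDM4B, which acts on histone H3 lysine 9, differed from the other demethylases in that most of its peaks were intronic. It had 11 DMSO peaks over 762 nt, 9 of them in distal introns, and 4 AVJ16 peaks over 265 nt, 1 of them in a distal intron. Its distal intron peaks were weak, between 3.09 and 3.82 with DMSO, and 1 of them overlapped an AVJ16 peak. Over all protein-coding genes distal introns held 5.15% of DMSO peaks and 1.93% of AVJ16 peaks.

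Of 11 histone deacetylase genes, HDAC4 and HDAC1 were listed. HDAC4, a class IIa deacetylase that shuttles between nucleus and cytoplasm, had 9 DMSO peaks in its 3’UTR (3), 5’UTR (1) and distal introns (5). Its 3 AVJ16 peaks were all intronic. No HDAC4 peak of one list overlapped a peak of the other. The highest DMSO value, 4.58 in the 3’UTR, thus had no listed counterpart with AVJ16, where the best HDAC4 peak was at 3.36. The highest −log10 p of an HDAC4 peak was 7.58 with DMSO and 6.54 with AVJ16. HDAC1, the catalytic subunit of the Sin3, NuRD and CoREST complexes, had 2 DMSO peaks at 3.00 and 3.07, close to the threshold of the list.

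SMARCC1, the BAF155 scaffold of SWI/SNF complexes, had the most peaks of all chromatin genes in both lists, 27 with DMSO and 18 with AVJ16. The length under them was nearly the same (1021 and 983 nt), as was the covered share of its 3’UTR (34.7% and 33.4%). Of its 9 sites, 8 were present in both lists. The most enriched peak was at 4.98 with DMSO and overlapped an AVJ16 peak at 4.48. Of 24 shared peaks, 7 were lower and 1 was higher by more than 0.5. Besides the best peak, the lower ones lay between 1061 and 1112 nt (3 peaks), at 413 and 428 nt, and at 307 nt past the stop codon, with differences down to -1.01. The peaks at 413 and 428 nt lie in a site with 4 DMSO peaks and 1 AVJ16 peak, so they share a partner. At the sites with lower peaks, the best values differed by -0.50, -0.86, -1.01 and -0.70. Those of the other shared sites differed by -0.36 to 0.04.

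SMARCD1, the BAF60A subunit, had 6 and 8 peaks in the middle of its 3’UTR, with best values of 4.71 and 4.67 and 25.9% and 34.8% of the 3’UTR covered. One of its 6 shared peaks was lower, by -0.50. SMARCAD1, an ATPase that acts outside SWI/SNF in heterochromatin maintenance, had 7 peaks over 563 nt and 5 peaks over 334 nt. Both of its shared peaks beyond 0.5 were lower with AVJ16 (by -0.55 and -0.97). SMARCE1, the BAF57 subunit, had 4 and 6 peaks, all of which also lie in the 3’UTR of an unnamed protein-coding gene on the same strand, so that their owner is uncertain. One of them was at 3.12 and 4.02, a difference of 0.90. The other 9 SMARC genes, among them the alternative ATPases SMARCA2 and SMARCA4 of SWI/SNF, had no peak.

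**Figure D3:**
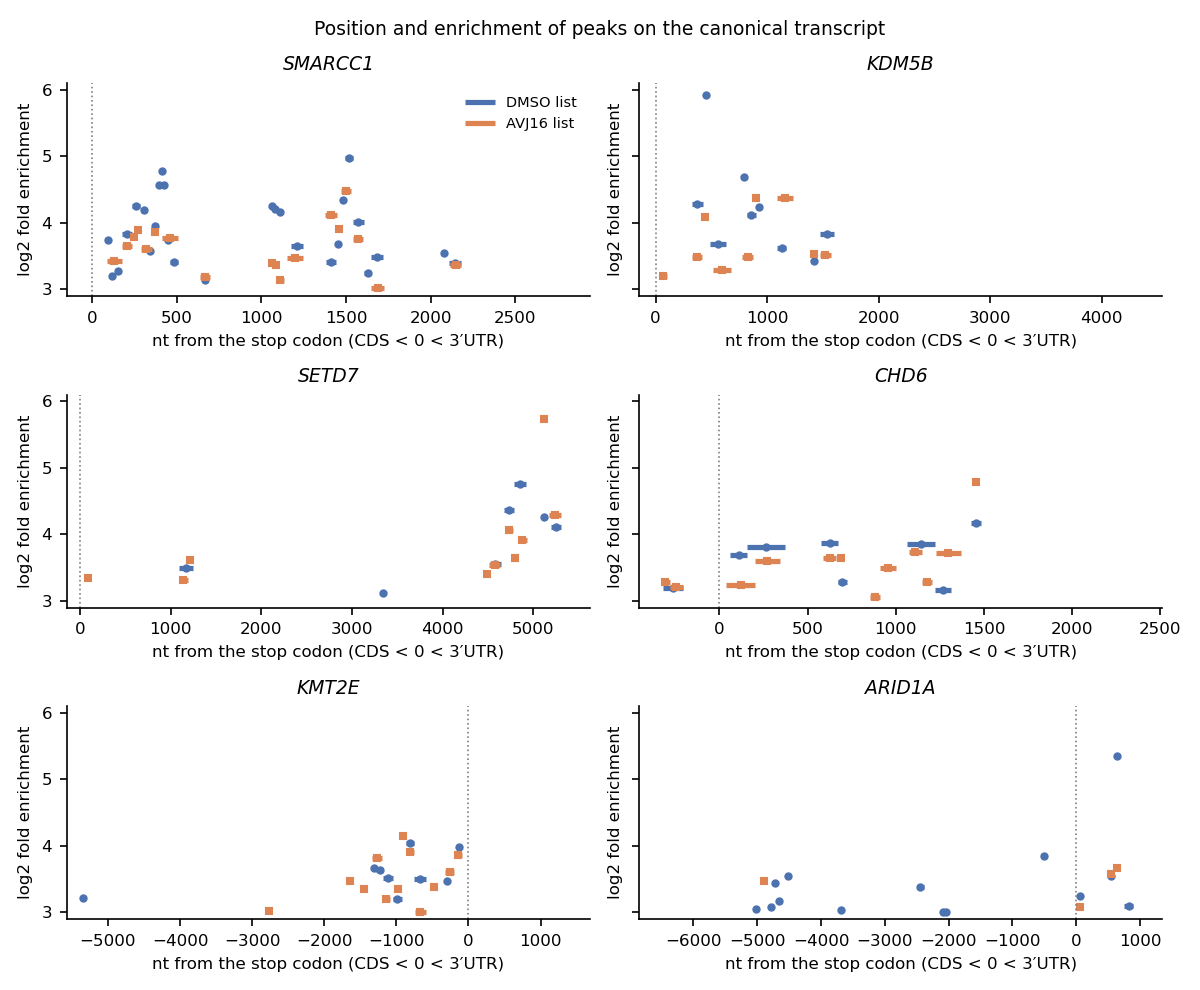
Peaks of 6 chromatin genes on their canonical transcript. The x axis is the distance of the peak centre from the first base of the stop codon (nt, CDS below 0 and 3’UTR above), the y axis the log2 fold enrichment, and bars span the length of a peak. Blue circles are DMSO and orange squares AVJ16 peaks. KDM5B peaks lie within 1595 nt past the stop codon, SMARCC1 peaks within 2182 nt, SETD7 peaks mostly between 4462 and 5305 nt, KMT2E peaks in the CDS, and ARID1A CDS peaks are nearly all from the DMSO list (10 against 1).

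ARID1A and ARID1B are alternative subunits that define the canonical BAF complex, and ARID1A is often mutated in tumours. ARID1A had 14 DMSO peaks over 977 nt and 4 AVJ16 peaks over 222 nt. Its CDS held 10 DMSO peaks with log2 fold enrichments of 3.00 to 3.85, and none of them overlapped the 1 AVJ16 peak in the CDS, at 3.47. The share of its CDS under peaks was 9.89% and 1.04%. In the 3’UTR, 3 of 4 DMSO peaks had a partner. The most enriched, 641 nt past the stop codon, was at 5.35 with DMSO and 3.66 with AVJ16, a difference of -1.69. The other 2 shared peaks differed by -0.16 and 0.04.

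ARID1B had 5 and 6 peaks, and 4 DMSO peaks between 462 and 686 nt past the stop codon were all shared, with differences of -0.12 to 0.41. Of these, 2 lie in the CDS of a transcript other than the canonical one. ARID2, which defines the PBAF complex, had 7 DMSO peaks over 652 nt and 2 AVJ16 peaks over 79 nt, all in the CDS. Each of these peaks also overlaps a 3’UTR of another transcript. All 3 shared peaks of ARID2 were within 0.5, and the 4 DMSO peaks without a partner were at 3.03 to 3.14. ARID5B, a DNA-binding partner of a histone demethylase, had 4 and 5 peaks. Its best DMSO peak was at 4.92 and its AVJ16 partner at 3.26, a difference of -1.66, while its other 2 shared peaks, at 4.30 and 4.03, differed by -0.03 and -0.08. The highest −log10 p of an ARID5B peak was 7.89 with DMSO and 5.12 with AVJ16. ARID3A, a DNA-binding factor, had 3 and 4 peaks with 1 of 3 shared peaks lower (by -0.99). ARID3B had 2 and 1 peaks that did not overlap.

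The CHD genes encode ATPases with chromodomains. CHD6 had 8 DMSO peaks over 879 nt and 12 AVJ16 peaks over 975 nt, which covered 30.5% and 33.8% of its 3’UTR. All 8 DMSO peaks were shared. The 2 that differed by more than 0.5 were both higher with AVJ16, one at 4.17 and 4.79 and the other at 3.17 and 3.72. The site that holds the latter had best values of 3.85 with DMSO and 3.73 with AVJ16. CHD9, a close relative of CHD6, had 4 DMSO peaks over 340 nt with a best value of 4.29, and 1 AVJ16 peak of 32 nt at 3.32 in its CDS, with no overlap. The peak at 4.29 was 18 nt long, with a −log10 p of 3.30. CHD1 had 3 and 1 peaks within 493 nt past its stop codon, with best values of 4.13 and 3.83. CHD8 had 1 AVJ16 peak at 3.03 in an intron, which overlaps the small nucleolar RNA SNORD9.

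Among the bromodomain genes, BRD3 encodes a BET protein that reads acetylated histones. BRD3 had 4 peaks with DMSO and 6 with AVJ16, over 358 and 504 nt, with best values of 3.61 and 3.69. Its 3 shared peaks differed by 0.05, 0.18 and 0.53. BRD9, a subunit of the noncanonical BAF complex, had 3 and 4 peaks. The 2 shared peaks of these, with differences of 0.08 and 0.43, lie in a distal intron that the gene ZDHHC11 also spans. BRD1, a scaffold of acetyltransferase complexes, had 3 AVJ16 peaks, all in distal introns, at 3.12 to 3.68.

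An AVJ16 peak overlapped 123 of the 198 DMSO peaks (62.1%, interval 55.2 to 68.6%), against 66.2% of the whole DMSO list. Conversely, 120 of 173 AVJ16 peaks (69.4%, interval 62.1 to 75.8%) overlapped a DMSO peak, against 70.8% of the whole AVJ16 list. The share by family was 38 of 44 DMSO peaks for SMARC (86.4%), 12 of 16 for SETD, 13 of 18 for KMT, 7 of 10 for BRD, 10 of 15 for CHD, 27 of 49 for KDM, 16 of 35 for ARID (45.7%) and 0 of 11 for HDAC, where the interval reaches 25.9%.

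Presence in the other list moved with enrichment. Of DMSO peaks at 3 to 3.5, 45 of 101 (44.6%) had a partner, against 48.8% of such peaks in the whole list. At 3.5 to 4, 41 of 53 (77.4%) had one, against 69.7%. At 4 to 4.5, 26 of 30 (86.7%) had one, against 82.6%, and at 4.5 or more, 11 of 14 (78.6%), against 92.2%. The ARID family had 23 of its 35 DMSO peaks below 3.5, KMT 12 of 18, KDM 22 of 49 and SMARC 16 of 44. For HDAC it was 8 of 11, for BRD 6 of 10, for CHD 8 of 15 and for SETD 6 of 16. The part of this in the family shares was not tested.

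**Figure D4:**
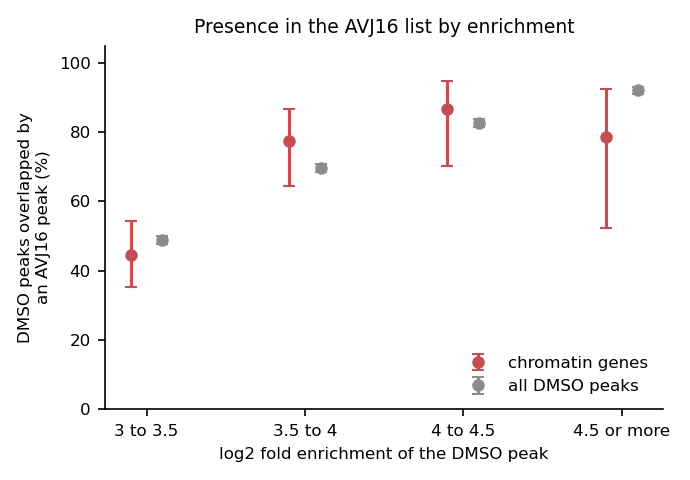
Share of DMSO peaks that an AVJ16 peak overlaps (y axis, %) by the log2 fold enrichment of the DMSO peak (x axis), for the chromatin genes (red) and the whole DMSO list (grey). Points are shares and bars 95% Wilson intervals, which cover counting error only. Chromatin genes went from 44.6% at 3 to 3.5 to 86.7% at 4 to 4.5 (whole list 48.8% and 82.6%), and were at 78.6%, 11 of 14 peaks, at 4.5 or more (whole list 92.2%).

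Over the 123 shared peaks the median difference, AVJ16 minus DMSO, was -0.04 (interval -0.12 to 0.04, SD 0.53), and it was -0.06 (interval -0.07 to -0.05, SD 0.56) over all 14759 shared peaks. Centred on the latter, the median of the chromatin genes was 0.02. A decrease of more than 0.5 was seen at 22 shared peaks (17.9%, interval 12.1 to 25.6%) and an increase at 12 (9.76%, interval 5.67 to 16.3%). Of all shared peaks, 20.1% were lower and 12.6% higher. Both shares of the chromatin genes thus included those of all shared peaks in their intervals. Since listed values start at 3, a DMSO peak below 3.5 could not count as lower, nor an AVJ16 peak below 3.5 as higher. With DMSO, 45 of the 123 were below 3.5, and 4439 of all 14759. An AVJ16 partner was common to several DMSO peaks for 35 of the 123. Joined into sites, 12 of 72 were lower and 6 higher. No such counts of sites over the whole lists are given here, and the shares of all shared peaks are of another unit.

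By family, 10 of 38 shared peaks were lower and 2 higher for SMARC, 7 of 27 lower and 4 higher for KDM, and 3 of 16 lower and 0 higher for ARID. Single genes weigh heavily in these counts. SMARCC1 alone held 24 of the 38 SMARC peaks and 7 of the 10 lower ones. KDM5B held 9 of the 27 KDM peaks and 4 of the 7 lower ones, while the 3 lower ARID peaks were in 3 genes. For CHD none of 10 was lower and 2 were higher, for BRD none of 7 was lower and 2 were higher, for SETD 1 of 12 was lower and 2 were higher, and for KMT 1 of 13 was lower. At least 1 changed shared peak was found in 19 genes, 3 of which had changes in both directions. A lower peak was found in 12 and a higher one in 10, where 30 chromatin genes were bound in both lists. Over all protein-coding genes the numbers were 1719 and 1212, with 4095 bound in both lists. How many of those had changes in both directions is not given here. Of the 6 genes with 2 or more such peaks, SMARCAD1 had lower peaks only, and KDM3A and CHD6 higher peaks only. These calls rest on single peaks. The best value of the 1 KDM3A site went from 4.24 to 4.11. Of the CHD6 sites with a higher peak, one went from 4.17 to 4.79 and the other from 3.85 to 3.73. The differences between families were not tested. Shared DMSO peaks below 3.5, which could not count as lower, were not set apart by family.

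**Figure D5:**
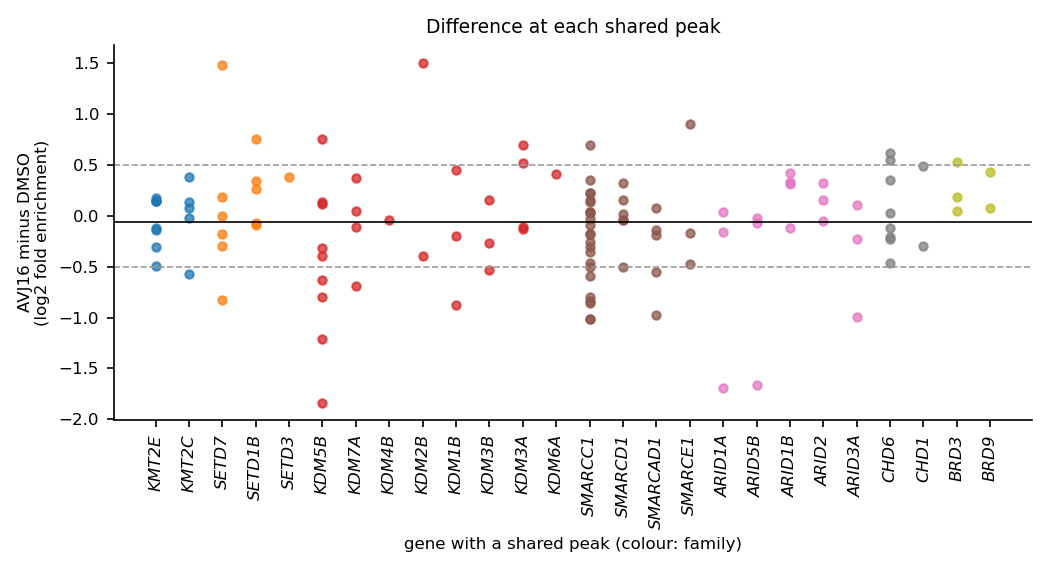
Difference in log2 fold enrichment, AVJ16 minus DMSO (y axis), at each DMSO peak that an AVJ16 peak overlaps, by gene (x axis), with colours for the families. Each point is 1 of 121 shared peaks, of the 123 in all, dashed lines mark 0.5 in both directions, and the solid line is the median of all 14759 shared peaks (-0.06). The 3 lowest points are in KDM5B, ARID1A and ARID5B, and the 2 highest in KDM2B and SETD7.

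Other genes of the same machinery were counted from 7 lists, 83 genes in all. Of these, 48 were bound with DMSO (57.8%, interval 47.1 to 67.9%) and 47 with AVJ16 (56.6%), with 214 and 223 peaks, against 25.8% and 23.2% of all protein-coding genes. COMPASS partners were bound in 6 of 8 genes with DMSO and 7 with AVJ16, and Polycomb partners in 5 and 4 of 8. The SWI/SNF partners had 6 and 5 bound genes of 14, HDAC complex partners 7 and 7 of 16, and acetyltransferases 6 and 5 of 10. Other remodelers, such as the INO80 and ISWI-related proteins, had 8 and 8 of 11, and other lysine methyltransferases and demethylases 10 and 11 of 16. In shared peaks, 12 of 125 were lower and 15 higher with AVJ16, against 20.1% and 12.6% of all shared peaks, with a median difference of 0.01 (interval -0.07 to 0.11).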

How the data were processed

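IGF2BP1 eCLIP peaks of H1299 cells treated with DMSO or AVJ16 were taken from 2 deposited lists, grouped by the treatment in the labels. Upstream, the authors used cutadapt, STAR and CLIPper, excluded repeat-derived and PCR-duplicate reads, and scored each peak by its IP reads relative to SMInput. The −log10 p and the log2 fold enrichment of each peak are the authors' values as deposited, normalized to input. Their combination of replicates gives no read counts, so the depth is unknown. The −log10 p stops at 400, and the highest in the chromatin genes was 55.8. The submitters' notes name hg38; all peaks end within its chromosomes.

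Peaks were given to GENCODE release 44 genes on the same strand by an overlap of at least 1 nt, and to the first region overlapped, in the order CDS, 3’UTR (with the stop codon), 5’UTR, noncoding exon, proximal and distal intron. The partner of a DMSO peak was the AVJ16 peak with the longest overlap, and a difference beyond 0.5 counted as a change. Tables were made in Python 3.11.15 with pandas 2.3.3, numpy 2.4.6 and scipy 1.17.1 and plots with matplotlib 3.10.9, and assignment, pairing and intervals were tested on simulated data. Positions are on the Ensembl canonical transcript. The RNA-seq and proteomics were not analysed here.

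Genes were named by rule: in each family the 2 with the most peaks and that with the most enriched peak in each list, and over all members the 10 with the most peaks, the 5 largest decreases and increases at a shared peak, genes of 1 list with a peak of at least 4, genes with 2 or more changed peaks all one way, genes with intron peaks only, and EZH1 and EZH2. One bound member is counted but not reported by name here. The other bound members, SMARCA2 and SMARCA4 were named after their values were seen. Members and lists were chosen with earlier results of these data known. The alternatives were stricter enrichment or −log10 p, 2 peaks per gene, peaks whole inside a gene or of 1 gene only, joined peaks, other region orders or transcripts, stricter or reverse pairing, a limit of 1, centring, and wider windows or all regions for motifs.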

Additional observations from a re-analysis of the deposited data

How the results depend on the processing

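Of 61 values recomputed under 14 alternatives, 42 stayed within the interval of the reported value or, for counts, within 1.5 times of it. These values are for the chromatin genes alone. The same values over all genes or the whole lists are not given here, so they cannot be set against the all-gene shares above. When peaks of both lists had to reach 4 on the log2 scale, 19 genes were bound with DMSO, 15 with AVJ16 and 11 in both, with 44 and 22 peaks, of which 95.5% and 90.9% lay in 3’UTRs. Under that threshold 36.4% of DMSO peaks had an AVJ16 partner, and 2 shared peaks were lower and 2 higher. The median difference was then 0.0546 (interval -0.205 to 0.322), against -0.04 (interval -0.12 to 0.04) in the main setting. Both intervals included 0. With touching peaks joined, 54.5% of DMSO peaks had a partner, and with an overlap of 50% of both peaks 42.4%. With the 3’UTR ranked before the CDS, its share was 82.3% with DMSO and 89.0% with AVJ16, since 34 of 49 and 37 of 43 CDS peaks also overlap a 3’UTR of another transcript. With a limit of 1, 6 shared peaks were lower and 2 higher. In windows of 60 nt, 56.6% of DMSO and 52.1% of AVJ16 3’UTR peaks held CAUA, CAUC or CAUU. Centring gave 18 lower and 14 higher peaks. No paired analysis was possible because the lists combine both replicates of each treatment.

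The lists hold no reads, no RNA levels and no value below the thresholds. Peaks within 0.5 of the enrichment threshold, 101 of 198 with DMSO, may be missing from the other list through a small difference. Peaks close to the p-value limit may be missing in the same way. Both lists were normalized separately. Which changes exceed the spread between replicates is not known from them.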
